A study of Saccharomyces cerevisiae with 67 samples.

Results

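The genome of budding yeast holds 76 genes for small nucleolar RNAs (snoRNAs) on its nuclear chromosomes, out of 6431 nuclear genes in the RefSeq annotation of the S288C reference (R64, the same build as sacCer3). They were taken from that annotation and divided by where they lie. A gene was called intronic when it lay inside an intron of a protein-coding host gene (8 genes), clustered when another snoRNA gene lay within 500 bp on the same strand (17 genes in 5 clusters), and independent otherwise (51 genes). The quantity described here is their overlap with regions of histone H4 acetylated at lysine 12 (H4K12ac), measured by ChIP-seq, in which DNA bound to a modified histone is recovered with an antibody and sequenced.

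The strain in all samples was BY4741, a haploid laboratory strain derived from S288C, either wt or mip6D, which lacks the RNA export factor Mip6. Cells grew in rich medium at 30 °C, and portions of each culture were moved to 39 °C for 20 or 120 min while the remainder stayed unheated. The labels give 67 libraries, 24 of RNA, 24 of total H4 and 19 of H4K12ac. For H4K12ac, wt cells have 3 libraries unheated, 1 at 20 min of heat and 4 at 120 min, and mip6D cells have 4, 3 and 4. The regions were deposited as 1 list, described in the study's methods as merged over samples, with positions and no heights, scores or samples. Which of the libraries entered the merge is not stated in it. The list thus holds no replicate and does not separate the strains or the times of heat. A base counts as covered when it lay in a peak of at least 1 library, and merging can make a region wider than the peaks it was built from. All shares and medians below describe that list over genes, which are not replicates, and no test was made between the groups of genes.

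SnoRNAs guide the chemical modification of ribosomal RNA (rRNA) in the nucleolus by pairing with it. C/D box snoRNAs, named for a C box near the 5′ end and a D box near the 3′ end, direct ribose methylation by Nop1, whereas H/ACA box snoRNAs direct pseudouridylation by Cbf5. A few, among them U3, U14 (SNR128), SNR30 and SNR10, act in cleavage of the rRNA precursor instead of, or in addition to, modification. Most yeast snoRNAs are transcribed by RNA polymerase II from promoters of their own, while clustered ones are cut by Rnt1 and other nucleases from 1 shared transcript and intronic ones are released from the spliced intron of the host. SNR52 is known to be transcribed by RNA polymerase III. H4K12ac is a mark of active promoters.

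The longest cluster and a pair of related intronic genes are shown first, because they hold 4 of the 6 snoRNA genes that did not lie whole in a region. All sequences are from the R64 reference, 5′ to 3′ on the strand of the gene. Capitals mark the C box letters TGATGA within the first 20 bases and the D box letters CTGA within the last 15. The cluster runs from SNR78 to SNR72 on the plus strand at chrXIII:297278-298651, and each of its 7 members is a C/D snoRNA.
SNR78: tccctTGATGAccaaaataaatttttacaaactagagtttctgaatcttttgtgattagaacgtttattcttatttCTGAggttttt
SNR77: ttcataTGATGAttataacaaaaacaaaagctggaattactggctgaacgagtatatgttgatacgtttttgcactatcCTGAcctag
SNR76: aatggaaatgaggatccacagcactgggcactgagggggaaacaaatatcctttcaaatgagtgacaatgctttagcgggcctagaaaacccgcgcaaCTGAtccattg
SNR75: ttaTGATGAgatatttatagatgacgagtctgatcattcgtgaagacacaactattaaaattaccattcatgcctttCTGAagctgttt
SNR74: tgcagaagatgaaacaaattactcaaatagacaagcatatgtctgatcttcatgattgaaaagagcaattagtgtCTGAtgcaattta
SNR73: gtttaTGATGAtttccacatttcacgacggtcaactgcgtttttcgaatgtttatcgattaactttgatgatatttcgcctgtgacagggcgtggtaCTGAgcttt
SNR72: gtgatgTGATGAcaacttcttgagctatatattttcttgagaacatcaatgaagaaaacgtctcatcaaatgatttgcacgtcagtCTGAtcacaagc

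SNR39 (chrVII:365163-365251, minus strand) and SNR59 (chrXVI:173827-173904, plus strand) lie in the second introns of RPL7A and RPL7B, 2 genes for the same protein of the large ribosomal subunit. The annotation gives both snoRNAs the same target, an adenosine of the large subunit rRNA whose ribose is methylated. Aligned end to end, they shared 67 identical bases, or 74.4% of the aligned positions.
SNR39: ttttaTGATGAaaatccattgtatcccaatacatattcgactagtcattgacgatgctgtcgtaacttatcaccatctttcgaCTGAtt
SNR59: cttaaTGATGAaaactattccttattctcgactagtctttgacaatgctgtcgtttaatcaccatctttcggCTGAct

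Over the class as a whole the box letters followed the annotated type. TGATGA stood in the first 20 bases of 36 of 45 C/D genes, of 1 of 29 H/ACA genes and of 0.983% of protein-coding genes. CTGA stood in the last 15 bases of 43 C/D genes, 1 H/ACA gene and 7.86% of protein-coding genes. The letters ACA stood in the last 10 bases of 18 of 29 H/ACA genes, 5 C/D genes and 8.63% of protein-coding genes. These were read on the strand of the gene only, and the C and D windows do not overlap in any of them. The 2 genes for U3, SNR17A and SNR17B, are listed by the annotation with neither type. By arrangement, all 17 clustered genes were C/D, as were 6 of 8 intronic and 22 of 51 independent genes.

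Most snoRNA genes lay in an H4K12ac region over their whole length. Of the 76 genes, 70 (92.1%) lay whole inside 1 region, 2 were cut by a region end and 4 lay outside. By arrangement, 6 of 8 intronic (75.0%), 14 of 17 clustered (82.4%) and 50 of 51 independent genes (98.0%) were inside. Measured in the same way, 63.3% of 275 tRNA genes lay whole in a region, as did 5 of 6 genes for spliceosomal RNAs. Of 6002 protein-coding genes, 89.9% had their first base in a region and 89.7% their first 100 bp. Of all windows of 100 bp in the nuclear genome, 60.2% lay inside 1 region. The snoRNA share was thus close to that of the starts of protein-coding genes, with the intronic and clustered groups below it and the independent group above. These differences rest on few genes and were not tested. Every clustered gene that was not inside belonged to 1 cluster, SNR78 to SNR72, which had 4 of its 7 genes inside. The snoRNA genes were short, with a median of 125 bp, and the independent ones, which lay inside most often, were the longest, at 183 bp against 92 bp for intronic and 95 bp for clustered genes. Counted in bases, the regions covered 94.7% of all snoRNA sequence, 64.6% of intronic, 87.0% of clustered and 98.8% of independent sequence, against 61.8% of the genome.

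The flanking sequence was covered to a different extent around each group. At the annotated 5′ end, 100% of independent, 88.2% of clustered and 75.0% of intronic genes were covered. At 250 bp downstream the shares were 98.0%, 76.5% and 37.5%, and at 500 bp they were 96.1%, 64.7% and 37.5%. For protein-coding genes the share stayed near its starting value, at 90.0% and 88.8% for these distances, and was 59.8% at 1000 bp. At 1000 bp the shares were 88.2% for independent, 70.6% for clustered and 62.5% for intronic genes, each above that of protein-coding genes, whereas at 250 and 500 bp the clustered and intronic shares were below it. The places compared are not alike. Protein-coding genes were read from the start codon, whereas 1000 bp lies past the end of most snoRNA genes, whose median length is 125 bp. Intronic genes already begin 193 to 901 bp into their hosts. Of the 8 intronic genes, which lie within a transcription unit that began upstream, 3 were thus still covered at 250 bp, as were 50 of the 51 independent genes. Of the 17 clustered genes, 7 belong to 1 cluster. Genes of a cluster can share a region end, so the clustered shares rest on few places.

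**Figure D1:**
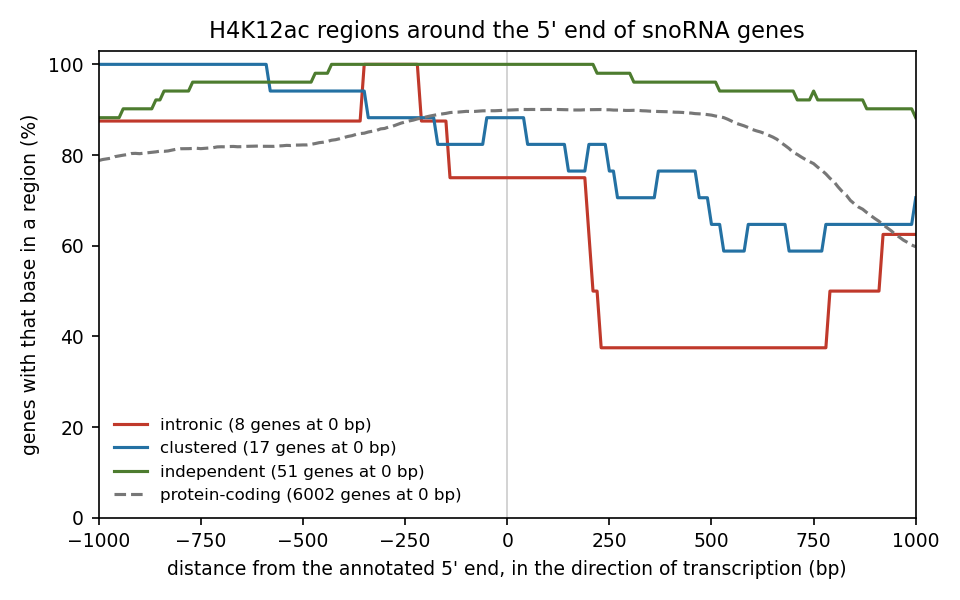
Share of genes (%) whose base at each distance (bp) from the annotated 5′ end lay in an H4K12ac region, by arrangement of the snoRNA gene and for protein-coding genes, every 10 bp. The line for the 51 independent genes is at 100% at the 5′ end and at 96.1% at 500 bp, while that for the 8 intronic genes goes from 75.0% to 37.5%.

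For the intronic genes, the order along the host was the order of coverage. Distances below run from the first base of the host, which in this annotation is the start codon, to the first base of the snoRNA. All 8 hosts had that first base in a region. SNR18, which guides methylation of large subunit rRNA, lay 193 bp into EFB1, the gene for a subunit of a translation elongation factor. SNR44, an H/ACA snoRNA, lay 268 bp into RPS22B, a gene for a protein of the small ribosomal subunit, and SNR38, a C/D snoRNA, lay 294 bp into TEF4, the gene for another elongation factor subunit. In these 3 the region ran past the far end of the host, so that host, intron and snoRNA were covered in full.

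In the other 5 hosts the region ended inside the gene, between 526 and 868 bp from its start. SNR54 began 556 bp into IMD4, a gene for an enzyme of guanine nucleotide synthesis, whose region ended after 762 bp. SNR24 (U24) began 616 bp into ASC1, which encodes a protein bound to the small ribosomal subunit, and the region there ended after 840 bp. SNR59 began 675 bp into RPL7B, whose region ended after 868 bp. These 3 snoRNAs were inside, with only 120, 135 and 115 bp between the end of the snoRNA and the end of the region. SNR39 began 745 bp into RPL7A, and SNR191, an H/ACA snoRNA that guides 2 pseudouridines of the large subunit rRNA, began 901 bp into NOG2, a gene for a GTPase of ribosome assembly. Their regions ended after 526 and 753 bp, so both snoRNAs lay outside, by 219 and 148 bp. All protein-coding genes of sufficient length gave a similar order when read at the same distances. The share covered was 90.3% at 193 bp, 87.5% at 556 bp, 81.3% at 675 bp, 76.0% at 745 bp and 57.9% at 901 bp.

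**Figure D2:**
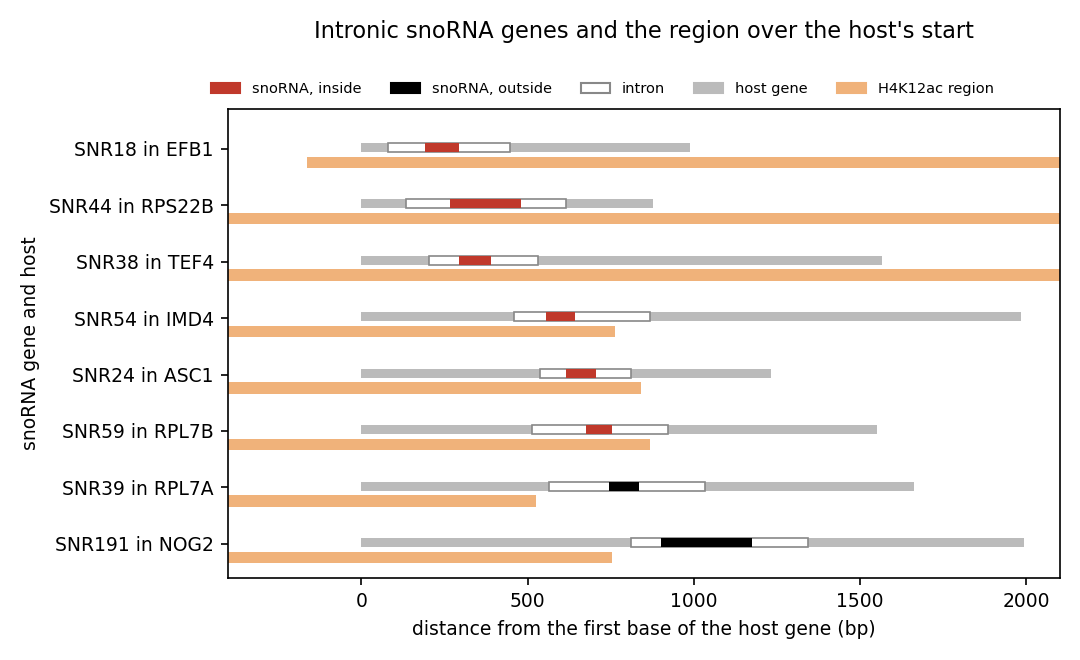
The 8 intronic snoRNA genes in their hosts, drawn to scale by distance (bp) from the first base of the host, with the intron in white and the H4K12ac region over the host's start below each gene. The snoRNA genes in red (inside) begin 193 to 675 bp into the host, and those in black (outside) begin at 745 and 901 bp.

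In the paralogous hosts the region thus ended after 526 bp in RPL7A and after 868 bp in RPL7B, and of their related snoRNAs the one in RPL7B was inside. Both hosts carry sequence that occurs elsewhere in the genome, to which a read of 50 bp may not map uniquely. Of the stretches of 50 bp in RPL7A, 24.2% were repeated, and in RPL7B 26.0%. In RPL7A all 390 of them lay outside the region, from 1053 bp into the gene onward, beyond SNR39. In RPL7B they began at 942 bp, and 369 of 390 lay wholly outside a region. Of the other hosts only IMD4 held repeated stretches (5.53%), and all 107 of them lay outside a region, from 1200 bp onward. Neither SNR39 nor SNR59 itself held such a stretch. How reads with several matches were treated is not given in the sources used here, and the part of repeats in these region ends was not tested. SNR39B, related to SNR39 by name, is an independent gene that lies 378 bp from the start of RPL7A. It was inside the same region of 4023 bp that SNR39, in the intron of that gene, missed by 219 bp.

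Introns that host a snoRNA were set beside other introns. Of 8 host introns, 4 lay whole in a region, against 91.2% of the 273 introns of protein-coding genes without a snoRNA gene. The host introns were longer, with a median of 407.5 bp against 133 bp. Other introns of ribosomal protein genes, which have a similar median of 406.5 bp, were covered in 88 of 88 cases. The start of these introns relative to the gene was not matched, and SNR39 and SNR59 lie in second introns. The parts of length, position and kind of host gene in this difference were not tested.

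Among the clusters, 4 of 5 lay whole inside 1 region. They spanned 385 to 1374 bp, and the share of genome stretches of such length inside 1 region was not computed. The 60.2% given above is for windows of 100 bp, so this count has no matched share beside it. SNR67 and SNR53 on chromosome V spanned 438 bp within a region of 11345 bp, with 57 bp between SNR53 and the region's end. SNR190 and SNR128 on chromosome X spanned 385 bp in a region of 8480 bp, which ended 141 bp after SNR128. SNR128 encodes U14, which is needed for the cleavage that gives the 18S rRNA. SNR57, SNR55 and SNR61 on chromosome XII spanned 539 bp in a region of 8115 bp, and SNR41, SNR70 and SNR51 on chromosome XVI spanned 543 bp in a region of 4071 bp. In the last 2 clusters the region continued for more than 1000 bp on either side.

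The fifth cluster, of the 7 genes shown above, spanned 1374 bp, and 61.0% of its bases were covered. A first region, chrXIII:296053-297966 (1914 bp), held SNR78, SNR77 and SNR76 whole and the first 49 bases of SNR75. A second, chrXIII:298503-299589 (1087 bp), held SNR72. The 536 bp between them, chrXIII:297967-298502, held the rest of SNR75 and the whole of SNR74 and SNR73. SNR74 lay 171 bp from the first region and SNR73 lay 90 bp from the second. The covered and uncovered genes are thus members of 1 array with the same type and spacers of 81 to 141 bp.

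The 60 bases around the end of the first region (chrXIII:297937-297996, plus strand) are shown because the end falls within SNR75, the guide for a methylation of large subunit rRNA. Capitals mark the bases inside the region.
SNR75: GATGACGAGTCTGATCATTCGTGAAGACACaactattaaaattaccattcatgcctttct

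Each of the 2 regions also held the start of 1 protein-coding gene, SEC59, a kinase gene of dolichol synthesis, before the array and BUD22, a gene of ribosome assembly, after it. From the start of SEC59 the snoRNA genes followed at 540 bp (SNR78), 768 bp (SNR77) and 987 bp (SNR76), and from the start of BUD22 at 217 bp (SNR72), 456 bp (SNR73), 643 bp (SNR74) and 862 bp (SNR75). The GC content of the gap was 32.5% against 38.3% for the genome, and no stretch of 50 bp in SNR75, SNR74 or SNR73 occurred elsewhere. Of the 1954 gaps between neighbouring regions, with a median of 1617 bp, 91 (4.66%) were no longer than 536 bp.

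**Figure D3:**
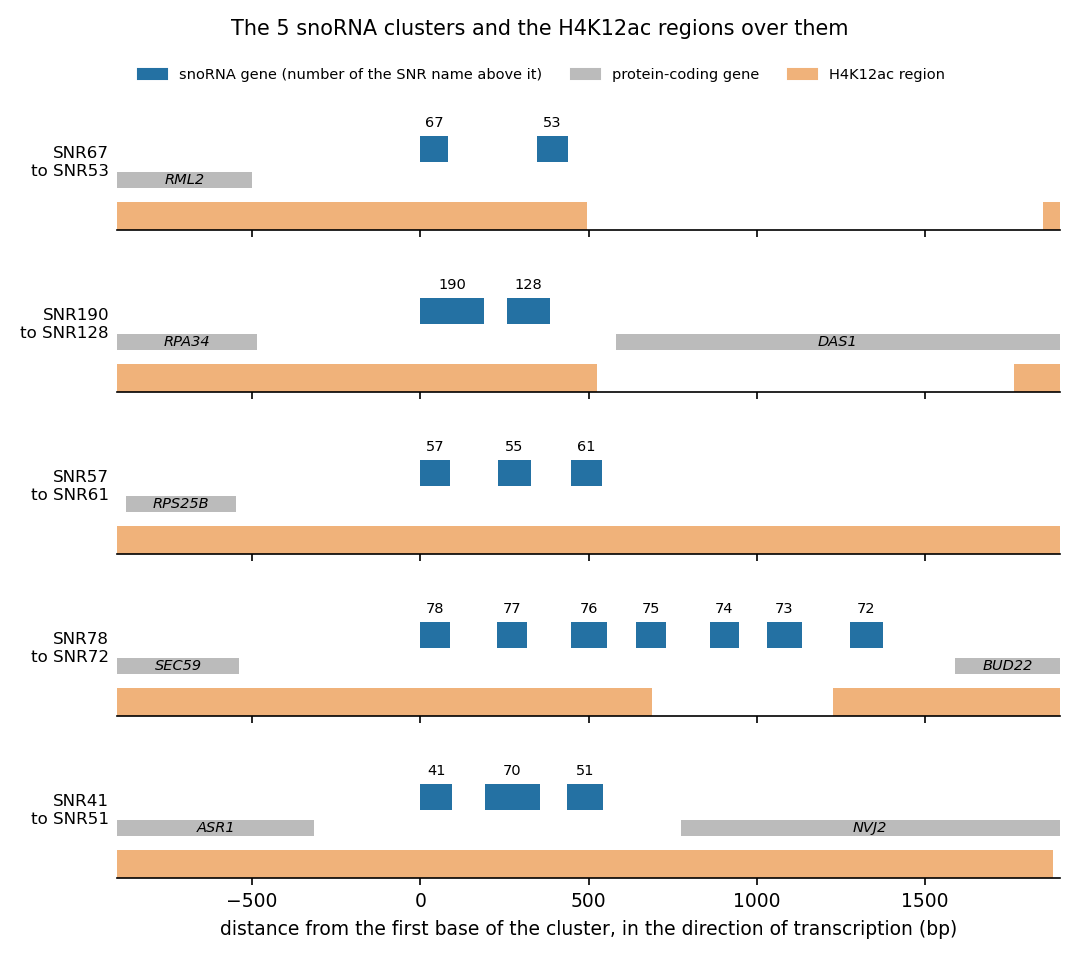
The 5 snoRNA clusters by distance (bp) from the first base of the first snoRNA gene, in the direction of transcription, with neighbouring protein-coding genes in grey and H4K12ac regions in orange, all to scale. In 4 clusters every gene lies over 1 region, and in the cluster from SNR78 to SNR72 a gap of 536 bp takes in SNR74, SNR73 and the end of SNR75.

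The promoter of this array is printed because its 7 genes share it. The 300 bases run from 250 bp before SNR78 to 50 bp into it (chrXIII:297028-297327, plus strand), all within the first region, and hold none of the 3 motifs searched below.
SNR78 promoter: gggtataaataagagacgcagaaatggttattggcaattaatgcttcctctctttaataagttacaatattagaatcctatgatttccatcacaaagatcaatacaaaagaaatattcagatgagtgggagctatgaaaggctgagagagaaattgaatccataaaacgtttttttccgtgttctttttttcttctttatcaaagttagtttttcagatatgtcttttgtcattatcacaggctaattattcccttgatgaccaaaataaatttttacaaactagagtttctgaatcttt

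Among independent genes, 50 of 51 lay inside and the other was touched. SNR86, an H/ACA snoRNA that guides a pseudouridine of the large subunit rRNA, is the longest snoRNA gene, at 1004 bp. A region of 1736 bp covered its first 875 bp and left the last 129 bp out. It was also the snoRNA gene farthest from a protein-coding start, at 2303 bp, and its region held no such start. The 60 bases around that region end (chrXIII:762209-762268, minus strand) are shown with the covered bases in capitals.
SNR86: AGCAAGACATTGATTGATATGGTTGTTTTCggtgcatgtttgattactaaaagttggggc

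The regions around independent genes spanned the widest range of lengths. SNR43, an H/ACA snoRNA, lay in the longest region of the whole list, 25822 bp with 19 protein-coding starts. SNR87 followed with a region of 15598 bp. SNR31 and SNR5, H/ACA genes on opposite strands 220 bp apart, shared a region of 14941 bp. At the other end, SNR56 lay in a region of 1599 bp, SNR50 in 1855 bp and SNR69 in 2034 bp. These 3 are C/D genes whose regions each held 1 protein-coding start. SNR65 with SNR189 (4627 bp) and SNR9 with SNR62 (6894 bp) were further pairs within a region, and SNR80 shared that of the cluster SNR67 and SNR53.

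The 5 genes named above for rRNA cleavage (SNR17A, SNR17B, SNR128, SNR30 and SNR10) were inside, a count close to the 92.1% of all snoRNA genes. The 2 U3 genes, SNR17A (490 bp) and SNR17B (462 bp), were 81.6% identical and lay in regions of 9714 and 4898 bp. They were the only snoRNA genes with any repeated stretch of 50 bp. SNR30, which is needed to release the 18S precursor, lay in a region of 7120 bp that ended 98 bp after the gene. SNR10, which is needed for early cleavages and also guides a pseudouridine, lay in a region of 2863 bp and overlaps the open reading frame YGL088W on the same strand. SNR60 and SNR17A also overlap an annotated coding gene, YJL047C-A and IRC13, and for these 3 the coverage of both genes cannot be told apart.

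Over all arrangements, a snoRNA gene lay in a region of 4959 bp at the median (quartiles 3628 and 8115 bp, n = 70 genes). The medians were 4314 bp for intronic (1946 to 7933 bp, 6 genes), 6093 bp for clustered (1087 to 11345 bp, 14 genes) and 5026 bp for independent genes (1599 to 25822 bp, 50 genes). The 3 ranges overlapped. The median of all 1970 regions was 2835 bp, but a long region holds more genes by its length alone, and the median at protein-coding starts, once per gene, was 4818.5 bp. The clustered value rests on 6 regions, each counted for every gene in it, and was 4071 bp when genes touched by a region were counted or when the longest 5% of regions were left out. That is below both other groups and below the protein-coding value, so the order of the medians is not stable. The 70 genes lay in 58 distinct regions, 2.94% of the list, of which 50 held 1 snoRNA gene and 8 held 2 or 3.

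**Figure D4:**
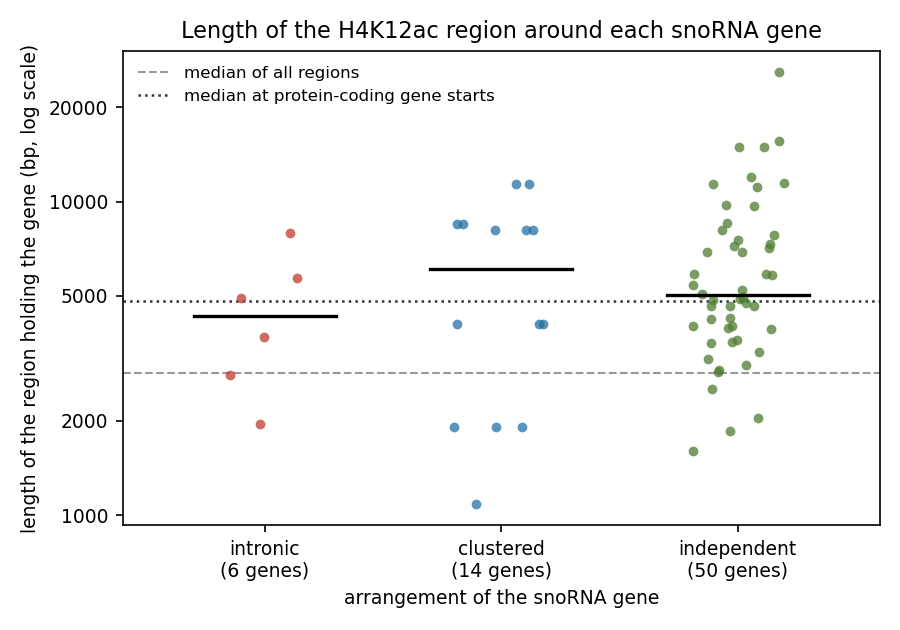
Length (bp, log axis) of the H4K12ac region that holds each snoRNA gene, 1 point per gene, for the 6 intronic, 14 clustered and 50 independent genes that lie whole in a region, with black bars at the group medians. Points of genes that share a region have the same height, and the medians of 4314, 6093 and 5026 bp lie on either side of the 4818.5 bp at protein-coding starts.

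The regions with snoRNA genes also held protein-coding genes. Each of the 58 held at least 1 protein-coding start, with a median of 3. In all regions the median was 2 and 3.50% held none, a share at which few of 58 would lack one. The 58 regions were also longer, at 4919 bp against 2835 bp at the median, and the number of starts was not compared at equal length. The nearest protein-coding start lay 539 bp from the snoRNA gene at the median, 586 bp for intronic, 680 bp for clustered and 399 bp for independent genes. All 13 snoRNA genes within 250 bp of such a start were inside a region, as were 21 of the next 22, up to 500 bp, and 30 of the next 34, up to 1000 bp. Of the 7 farther away, 6 were inside. These were SNR62 at 1006 bp, SNR71 at 1089 bp, SNR55 at 1105 bp, SNR36 at 1240 bp, SNR61 at 1324 bp and SNR84 at 1383 bp, and the seventh was SNR86. Since each of the 70 snoRNA genes had a protein-coding start in its region, the coverage of the snoRNA and that of its neighbour cannot be told apart in a merged list.

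The distance to the edge of the region varied with the arrangement, with overlapping ranges. The nearest region end was 1369.5 bp from an independent gene at the median (98 to 5732 bp), 507.5 bp from a clustered gene (51 to 3785 bp) and 246 bp from an intronic gene (115 to 3528 bp). For the first 100 bp of protein-coding genes the median was 950 bp. A region end lay within 200 bp of 3 of 6 intronic, 4 of 14 clustered and 2 of 50 independent genes, beside 3.34% of protein-coding genes (first 100 bp) and 6.32% of tRNA genes. The independent count is close to these shares, and the other groups hold few genes. The 2 independent genes were SNR30 and SNR48, with 98 and 100 bp to the downstream end.

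**Figure D5:**
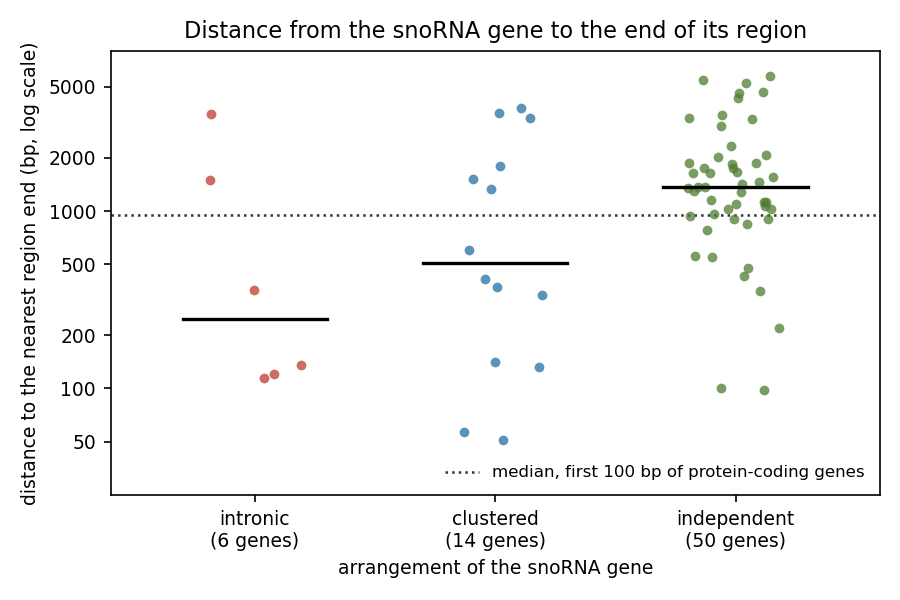
Distance (bp, log axis) from each snoRNA gene to the nearest end of its region, 1 point per gene, with black bars at the medians of 246, 507.5 and 1369.5 bp for intronic, clustered and independent genes. The ranges of the groups overlap, and 2 of the 50 independent genes lie within 200 bp of an end.

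By annotated type, 41 of 45 C/D and 27 of 29 H/ACA genes lay inside, in regions of 4209 and 7120 bp at the median. Both U3 genes, to which the annotation gives neither type, were inside as well, with a median of 7306 bp. The median at protein-coding starts, once per gene, was 4818.5 bp. Among independent genes, which hold both types, the medians were 4418 bp for 22 C/D and 7007 bp for 26 H/ACA genes. The order was the same within that group, but the ranges overlapped, at 1599 to 15598 bp and 2863 to 25822 bp. The medians by type were not recomputed under the alternatives described below. By target, 40 of 45 guides of large subunit rRNA, 19 of 20 of small subunit rRNA and 8 of 8 with targets in both lay inside. The counts by type and by target were close to the 92.1% of all snoRNA genes. They were also close to the 89.7% of protein-coding genes whose first 100 bp lay in a region.

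The promoter, taken as 250 bp before to 50 bp after the annotated 5′ end, was covered whole in 51 of 51 independent genes and in 5 of 5 first genes of a cluster, against 86.2% of 6001 protein-coding genes in the same window. It was covered whole in 8 of 12 later cluster genes and 6 of 8 intronic genes, whose upstream sequence is a spacer or an intron and not a promoter. The annotated 5′ end is that of the mature RNA, so transcription may start further upstream, which was not examined here.

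Motifs of 3 factors that bind promoters of ribosome-related genes were searched in these windows on both strands. ACCCTAA, bound by Tbf1, which is known to act at yeast snoRNA genes, stood in 5 of 51 independent promoters (9.80%), those of SNR65, SNR13, SNR46, SNR30 and SNR35, and in 2.12% of the 6430 promoters of nuclear genes. TTACCCG, bound by Reb1, stood in 8 independent promoters (15.7%), those of SNR189, SNR82, SNR10, SNR42, SNR34, SNR11, SNR35 and SNR45, and in 6.91% of all. CACCCNNAC, bound by Rap1, stood in none of them and in 1.93% of all. It also stood in 1 of the 8 windows of intronic genes, that of SNR191, which is not a promoter. None of the 14 matches in the windows of all snoRNA genes overlapped a match of another factor. The first genes of the 5 clusters and the 8 hosts held no match, which says only that these letters are not in these windows. A match is a stretch of letters and was not tested as a site.

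Since all 51 independent promoters were covered whole, coverage could not differ between those with and without a match. All 12 promoters with at least 1 motif and all 39 without were covered whole, beside the 86.2% of protein-coding genes given above. The promoter of SNR30 (chrXII:198534-198833, plus strand) is shown as an example with the Tbf1 letters in capitals.
SNR30 promoter: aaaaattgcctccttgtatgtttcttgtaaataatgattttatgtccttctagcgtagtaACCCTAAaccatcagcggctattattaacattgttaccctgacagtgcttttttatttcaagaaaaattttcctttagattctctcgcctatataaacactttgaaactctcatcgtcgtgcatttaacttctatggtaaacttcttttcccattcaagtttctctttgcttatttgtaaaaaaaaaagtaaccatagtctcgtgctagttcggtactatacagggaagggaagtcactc

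The genes for the proteins that work with snoRNAs were read in the same list. Of 31 such genes, 31 had their first base in a region, against the 89.9% of all protein-coding genes given above. The list holds the 4 core proteins of C/D particles (NOP1, the methyltransferase, with NOP56, NOP58 and SNU13), the 4 of H/ACA particles (CBF5, the pseudouridine synthase, with NHP2, NOP10 and GAR1), 9 assembly factors, 10 genes of processing and capping and 4 promoter-binding factors. Their regions had a median of 6978 bp. The range was wide, from 1044 bp at SEN1, a helicase of snoRNA transcription termination, to 17707 bp at DBR1, which opens intron lariats. These 2 were chosen for their values.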

How the data were processed

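Reads of 50 bp were trimmed by the authors with Cutadapt and aligned to sacCer3 using Bowtie2. Their peaks came from MACS2, run only with the H4K12ac libraries, and bedtools with default settings merged the samples. Versions are not given in the sources used here. The deposited list gives region positions, with a score of 0 and a plus strand throughout. Starts were read as 0-based and written from 1. Reads per library are not in it, so depth behind a region is unknown. RefSeq R64 supplied genes, introns and sequence, and every region lies within its chromosome there.

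A gene was inside when its whole length lay in 1 region. Overlap functions were tested on simulated data. Python 3.11.15, NumPy 2.4.6, Biopython 1.88 and Matplotlib 3.10.9 were used. Named were genes not inside, intronic genes with hosts, clusters, and among independent genes those in the 3 longest and 3 shortest regions, those sharing a region, those over 1000 bp from a coding start, and U3, U14, SNR30 and SNR10. Other genes, including SNR39B, SNR48, SNR60 and those with a promoter motif, were named after their values were seen. Members and lists were chosen with earlier results of these data known. Alternatives were the overlap required, the regions kept or joined, the definition of a cluster and the weight of a region. RNA, total H4 and differences between strains and times were not analysed here.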

Additional observations from a re-analysis of the deposited data

How the results depend on the processing

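The counts of genes inside a region and the median region lengths were recomputed under 52 alternatives. Of these, 49 stayed within 1.5 times the count or within the 95% binomial interval of the median over genes, and 3 moved. With the main groups no count could rise 1.5 times, so only a fall could have counted as moved. The interval of the median treats genes sharing a region as separate. For the intronic genes it was the full range of their 6 values, 1946 to 7933 bp. For the clustered genes, in 6 regions, it reached from 1914 to 8480 bp. Their median was 4071 bp in place of 6093 bp with 1 bp of overlap, without the longest 5% of regions and after joining at 1000 bp, which made it the lowest of the 3 groups. All 3 moved values came from joining regions at most 1000 bp apart, chosen after seeing the data, which raised the median length to 7790.5 bp for all, 8500 bp for intronic and 8115 bp for independent genes, as it turned 1970 regions into 1432. The count inside ranged from 60 to 74 for all genes, 12 to 17 for clustered and 42 to 51 for independent genes, and was 6 for intronic genes throughout. The lowest count came from leaving out the longest 5% of regions, which hold 10 of the genes. Joining at 500 bp left the cluster from SNR78 to SNR72 split, and joining at 1000 bp put all 17 clustered genes inside. No paired analysis was possible because the regions are merged over samples without replicate numbers. Leaving out each replicate was likewise not run, nor a stricter threshold for peaks, as the deposited scores are all 0.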
